A study of Homo sapiens with 24 samples.

Results

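Very wide H3K27ac domains were examined in the established human bladder cancer line UMUC1 by chromatin immunoprecipitation sequencing (ChIP-seq). H3K27ac is the acetylation of lysine 27 on histone H3. The H3K27ac peaks of 6 libraries were merged wherever they touched or overlapped. A merged region was called a domain when peaks of all 6 libraries overlapped it and it was at least 8.00 kb wide. This gave 1171 domains out of 26030 regions called in all 6 libraries (4.50%) and 81795 merged regions (1.43%). The domains were thus chosen by the presence and width of H3K27ac peaks in these 6 libraries, so the width, the presence and the amount of H3K27ac in the domains are descriptions and were not tested. UTX, MLL4, H3K4me1 and H3K27me3 took no part in the choice.

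Every group was UMUC1 carrying a stable pSIN-puro construct, harvested 3 days after plating. The control line (EV) had the vector with no insert, the WT line had it with wild-type UTX, and the HEAA line had it with UTX that carries the substitutions H1146A and E1148A. H3K27ac was measured in 2 numbered libraries per line, and UTX, MLL4, H3K4me1 and H3K27me3 in 1 list per line, so values of the latter have no replicate error. The labels do not say whether the numbered libraries came from separate cultures nor whether a line is 1 clone.

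H3K27ac marks active promoters and enhancers. It stands on the same lysine as H3K27me3, the mark laid by Polycomb complexes on silent chromatin, so one excludes the other on a given histone tail. Long runs of acetylated enhancers are often called super-enhancers or stretch enhancers and are known for lying near genes that a cell type depends on. UTX, also named KDM6A, removes methyl groups from H3K27 and is a subunit of the complexes built on MLL3 and MLL4, the methyltransferases that place H3K4me1 on enhancers.

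The lists differed in length. The H3K27ac lists held 37298 to 72700 peaks and covered 48.3 to 110.5 Mb. All libraries with number 1 were longer than those with number 2, the longest being HEAA number 1 and the shortest HEAA number 2. EV had 31 UTX and 133 MLL4 peaks, WT 2566 and 898, and HEAA 2855 and 1125. Sequencing depth is unknown for every list.

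The domains were 8.00 to 44.7 kb wide, with a median of 10.1 kb and quartiles of 8.77 and 12.6 kb. The median of all regions called in 6 libraries was 2.58 kb. At least 12 kb was reached by 339 domains, 20 kb by 51 and 30 kb by 10. Together the domains spanned 13.5 Mb, which was 15.9% of the bases of regions called in all 6 libraries. Nearly every region of this width was called in every library: of 1176 merged regions of at least 8.00 kb, 5 were called in fewer than 6. One of these 5, on chromosome 6 from 24927783 to 24936866 (hg19), was called in 3 libraries, with 9.08 kb acetylated in EV number 1, 3.51 kb in EV number 2 and 0.296 kb in HEAA number 1.

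The width limit fell within a continuous range. The narrowest domains lay on chromosome 6 from 21020911 to 21028910 (8000 bp), on chromosome 1 from 186151345 to 186159345 (8001 bp) and on chromosome 16 from 73085919 to 73093921 (8003 bp). The widest regions that missed the limit lay on chromosome 1 from 19333607 to 19341603 (7997 bp), on chromosome 1 from 225838690 to 225846673 (7984 bp) and on chromosome 17 from 25901357 to 25909338 (7982 bp). One region of each set held UTX, with 1 summit in WT and 2 in HEAA in the domain on chromosome 16 and 1 in each line in the first region that missed.

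Domains lay on every autosome and on chromosome X. Chromosomes 1 and 2 held 116 each. As a share of the regions called in all 6 libraries, domains were scarcest on chromosome X, with 10 of 653 (1.53%, 95% Wilson interval 0.834 to 2.80), and on chromosome 4, with 19 of 951 (2.00%, 1.28 to 3.10). They were most frequent on chromosome 7, with 88 of 1324 (6.65%, 5.43 to 8.12). These intervals cover counting error only, here and throughout.

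Some domains had another close by. The median gap between neighbours was 667 kb, but 200 domains (17.1%) had a neighbour under 10 kb away and 423 (36.1%) had one under 50 kb away. Neighbours were not counted for narrower regions, so these shares do not show whether domains lie closer together than other regions do. The smallest gap was 49 bp, and 28 pairs were under 1 kb apart, so the merging rule split some acetylated stretches that are nearly continuous. Chains in which each gap was under 50 kb reached 7 domains. One such chain ran on chromosome 2 from 237566340 to 237683282, with 86.5 kb of domain in a span of 117 kb, and the other on chromosome 7 from 55026201 to 55203490, with 85.4 kb in 177 kb. With gaps under 10 kb the longest chains had 4 domains, among them the one on chromosome 12 from 52535329 to 52644078, which ended in the widest domain of all and held 92.3 kb of domain in 109 kb.

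In 5 of the 6 libraries most domains were broken into pieces, the exception being HEAA number 1. The mean number of separate peaks per domain was 2.14 in EV number 1, 2.02 in WT number 1 and 1.65 in HEAA number 1. With number 2 it was 2.21 in EV, 2.52 in WT and 2.56 in HEAA. A single peak, of whatever width, lay in 444, 490 and 664 domains in EV, WT and HEAA with number 1, and in 392, 248 and 243 with number 2. Peaks covered every base of the domain in 64, 35 and 114 domains with number 1 and in 34, 1 and 0 with number 2. Only 43 domains held a single peak in each of the 6 libraries. A piece that was itself at least 8.00 kb was found in all 6 libraries in 86 domains (7.34%) and in no library in 147 (12.6%), so the width of those 147 came from merging.

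Bases inside an H3K27ac peak of a library are called acetylated below. In the libraries with number 1 they made up 87.1% (EV), 87.9% (WT) and 93.8% (HEAA) of all domain bases, and in those with number 2 75.2%, 64.0% and 59.8%. The library number separated the values more than the line did: each library with number 1 lay above each library with number 2. Within number 1, EV was the lowest of the 3, and within number 2 it was the highest. The mean was 81.2% ± 8.46 (SD, n = 2) in EV, 75.9% ± 16.9 (SD, n = 2) in WT and 76.8% ± 24.0 (SD, n = 2) in HEAA.

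The average of WT and HEAA was above EV by 3.67 percentage points with number 1 and differed from EV by -13.2 points with number 2. The direction thus turned with the number, and the lines overlapped. Over all 6 libraries the difference was -4.79 points, and it was 1.43 points without EV number 1 and 0.706 points without HEAA number 2. The length of the whole list moved the same way: EV covered 88.1 Mb with number 1 and 71.7 Mb with number 2, WT 96.0 and 55.3 Mb, and HEAA 110.5 and 48.3 Mb. Its part in the result was not tested. WT and HEAA also changed order, WT minus HEAA being -5.88 points with number 1 and 4.19 points with number 2.

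**Figure D1:**
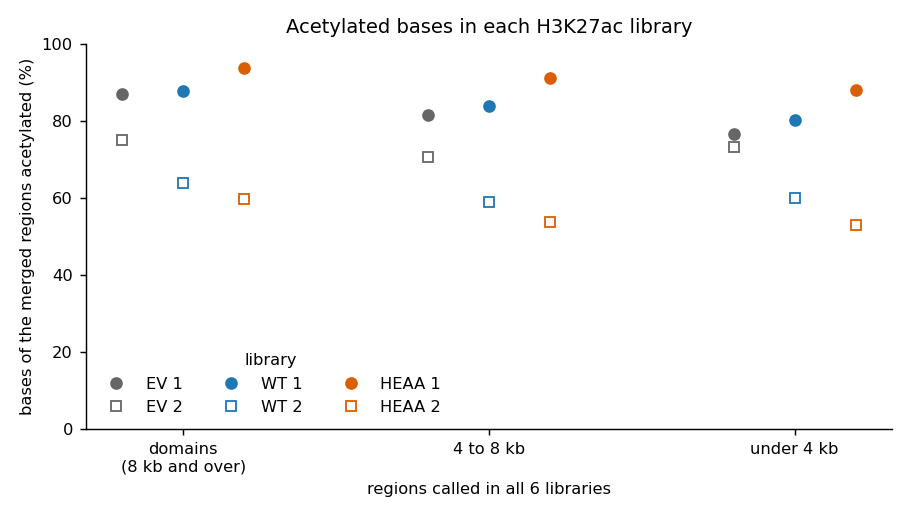
Share of bases inside an H3K27ac peak (vertical axis, percent) in each of the 6 H3K27ac libraries, for domains and for narrower regions called in all 6 libraries; filled circles are libraries with number 1 and open squares those with number 2. In domains the share runs from 59.8% in HEAA number 2 to 93.8% in HEAA number 1, and EV is the lowest of the filled circles and the highest of the open squares in every width class.

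The plot of acetylated share by width class shows the same order in narrower regions. In regions of 4 to 8 kb called in all 6 libraries the shares in EV, WT and HEAA were 81.7%, 83.8% and 91.2% with number 1 and 70.6%, 58.9% and 53.9% with number 2. There the WT and HEAA mean differed from EV by 5.86 points with number 1 and -14.2 points with number 2. In regions under 4 kb the differences were 7.53 and -16.7 points. Both differences were therefore smallest in size in the domains.

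Counted domain by domain, the mean of WT and HEAA exceeded EV in 726 domains with number 1 and in 149 with number 2. Domains with fewer acetylated bases in WT and HEAA than in EV under both numbers were 433 (37.0%), against 31.1% of all regions called in 6 libraries. Domains with more under both numbers were 138 (11.8%), against 13.4%. All 4 WT and HEAA libraries were below the EV library of their number in 274 domains (23.4%), against 19.1%, and all 4 were above it in 79 (6.75%), against 7.04%. Nothing is read from these shares, since the same H3K27ac lists chose the domains and the EV libraries are common to every comparison.

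The bases acetylated in all 6 libraries, called the core below, summed to 7.16 Mb, or 53.1% of domain bases, against 46.2% in regions of 4 to 8 kb. The core made up 54.6% of the median domain, and between domains it ranged from 0 to 97.0%. In 2 domains no base was shared by all 6 libraries, and 230 domains had a core of at least 8.00 kb. A further 6.25% of domain bases were acetylated in 1 library alone.

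UTX lay in the domains at 0.0400 summits per kb in WT (540 summits, exact Poisson 95% interval 0.0367 to 0.0435) and 0.0446 in HEAA (602 summits, 0.0411 to 0.0483). A summit is the position of highest signal that the authors' peak caller gave. In EV the domains held 5 summits, or 0.000370 per kb (0.000120 to 0.000864), the level in the control line, and 7.41e-05 per kb when only peaks with a −log10 q of at least 5 were kept. Of each whole UTX list, 21.0% fell in domains in WT and 21.1% in HEAA. When the longer HEAA list was shortened to the length of the WT list by q value, its density became 0.0401 per kb.

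Density went up with the width of the acetylated region and then levelled. In WT it was 0.00600 summits per kb in regions of 1 to 2 kb, 0.0191 in 2 to 4 kb, 0.0358 in 4 to 8 kb, 0.0402 in 8 to 12 kb, 0.0394 in 12 to 16 kb and 0.0400 from 16 kb. In HEAA the same classes had 0.00818, 0.0222, 0.0393, 0.0471, 0.0437 and 0.0386. Within the domains the intervals of the 3 classes overlapped in each line. The domains held 1.12 times the density of regions of 4 to 8 kb in WT (95% interval 1.00 to 1.24) and 1.13 times in HEAA (1.03 to 1.25). These small excesses depended on the processing. With H3K27ac peaks of −log10 q at least 5 the ratio was 1.03 in WT (0.918 to 1.15) and 1.05 in HEAA (0.946 to 1.17). Without EV number 2 it was 1.09 in both lines, with intervals from 0.977 and 0.981. Against regions of 2 to 4 kb the ratios of all domains were 2.09 and 2.01. Domains of at least 12 kb had 0.0397 summits per kb in WT and 0.0411 in HEAA. They were compared with the next narrower regions, which include the domains of 8 to 12 kb, and not with regions of 4 to 8 kb. That ratio was 1.02 in WT (0.875 to 1.19) and 0.946 in HEAA (0.815 to 1.10).

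MLL4 lay at 0.0125 summits per kb in WT (169 summits, 0.0107 to 0.0146), 0.0167 in HEAA (226 summits, 0.0146 to 0.0191) and 0.00126 in EV (17 summits, 0.000734 to 0.00202). In regions of 4 to 8 kb the density was 0.0126 in WT and 0.0162 in HEAA. The ratio of domains to those regions was 0.991 in WT (0.822 to 1.19) and 1.04 in HEAA (0.882 to 1.22), and both intervals include 1. In EV the density was 0.000712 in domains of at least 12 kb. From 16 kb the WT density was 0.00886 (25 summits, 0.00573 to 0.0131) and the HEAA density 0.0156 (44 summits). With lists of equal length, the HEAA density in domains was 0.0125, the same as in WT to 3 digits.

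**Figure D2:**
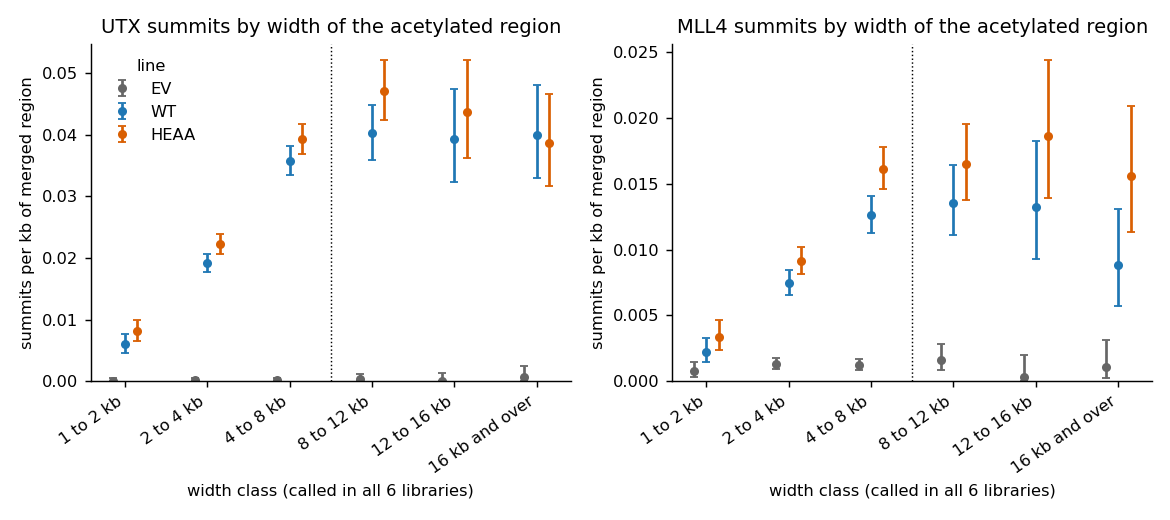
UTX (left) and MLL4 (right) summits per kb of merged H3K27ac region (vertical axes) by width class of regions called in all 6 libraries (horizontal axis), for the EV, WT and HEAA lists; bars are exact Poisson 95% intervals and the dotted line marks 8.00 kb, with domains to its right. UTX density climbs from 0.00600 to 0.0358 per kb in WT up to 4 to 8 kb and lies between 0.0394 and 0.0402 in the 3 domain classes, while EV stays near 0.

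Counted by domain, 439 of 1171 held a UTX summit in WT (37.5%, against 7.69% of all regions called in 6 libraries) and 483 in HEAA (41.2%, against 8.68%). In EV 4 did (0.342%, against 0.0692%). These gaps contain the greater width of domains, which the counts per kb above take out. The same domain held UTX in both WT and HEAA in 352 cases (30.1%, against 5.55%), in WT alone in 87 and in HEAA alone in 131, and 601 held none in either. Of the UTX peaks with a summit in a domain, 71.3% of those in WT overlapped a HEAA peak (67.3 to 75.0). In regions of 4 to 8 kb 68.5% did (65.4 to 71.4), and outside domains 66.2% (64.2 to 68.3). The interval of domains overlapped both of the others.

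Most occupied domains had 1 UTX summit. At least 2 were found in 82 domains in WT and 101 in HEAA, up to 6 in WT and 4 in HEAA. Neighbouring summits in such domains were a median of 3632 bp apart in WT and 3286 bp in HEAA. In regions of 4 to 8 kb, 918 summits of WT lay in 853 regions and 1008 of HEAA in 944. The counts of summits per domain contain the greater width of domains. Across the 1171 domains, width and UTX summits per kb had a Spearman correlation of 0.0455 in WT and -0.0143 in HEAA. These are descriptions over domains that share 1 list.

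MLL4 was found in 157 domains in WT (13.4%, against 2.86%), 205 in HEAA (17.5%, against 3.63%) and 17 in EV (1.45%, against 0.376%). It was in both WT and HEAA in 101 (8.63%, against 1.6%). All 17 domains with MLL4 in EV also held it in WT or HEAA, and 13 held it in both. Of the 17 MLL4 peaks of EV in domains, 82.4% overlapped an MLL4 peak of WT (59.0 to 93.8). In regions of 4 to 8 kb 74.2% did (56.8 to 86.3), and outside domains 75% (66.4 to 82.0), so the intervals overlapped. Of the domains with UTX, 31.0% held MLL4 in WT (136 of 439) and 37.3% in HEAA (180 of 483). Of those without UTX, 2.87% held MLL4 in WT (21 of 732) and 3.63% in HEAA (25 of 688). Like shares were not counted in narrower regions, and wider domains held each factor more often.

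At the level of single peaks, 81.1% of the MLL4 peaks in domains overlapped a UTX peak in WT (137 of 169, 74.5 to 86.3) and 82.7% in HEAA (187 of 226, 77.3 to 87.1). In regions of 4 to 8 kb 74.1% and 75.1% did, and outside the domains 60.8% and 62.6%. The intervals of domains and of all peaks outside them did not overlap, while those of domains and regions of 4 to 8 kb did. The converse share was lower: 25.4% of UTX peaks in domains overlapped MLL4 in WT and 30.7% in HEAA. UTX and MLL4 were present together in both lines in 90 domains (7.69%, against 1.2% of all regions called in 6 libraries), and 575 domains (49.1%, against 88%) held neither factor in any line.

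UTX summits kept away from the ends of domains. The middle 50% of the width held 65.7% of the WT summits (61.6 to 69.6) and 67.3% of the HEAA summits (63.4 to 70.9). The outermost 20%, 10% at each end of the domain, held 2.59% and 2.99%. Within 1 kb of an edge lay 4 summits in WT and 5 in HEAA (0.741% and 0.831%), a zone that makes up 17.4% of the width. MLL4 gave 65.1% and 66.8% in the middle 50%. The ends of domains are by construction bases that few libraries call, and 81.5% of UTX summits in WT and 83.9% in HEAA lay in the core, which makes up 53.1% of bases.

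H3K4me1, the mark placed by MLL3 and MLL4, covered 78.7% of domain bases in EV, 76.6% in WT and 77.9% in HEAA. In regions of 4 to 8 kb it covered 74.1%, 72.1% and 73.6%, and under 4 kb 61.6%, 59.1% and 60.6%. At the deposited threshold, coverage was thus higher in wider regions in each line. At least 1 base of H3K4me1 was present in 1170 domains in EV and in all 1171 in WT and HEAA. The only domain without it in EV lay on chromosome 19 from 52286627 to 52298536 and is described below.

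H3K4me1 also stepped at the domain edge, although it had no part in setting it. Of the 2342 edges, 25.5% in EV, 26.1% in WT and 29.9% in HEAA had H3K4me1 at 0.25 kb outside. At 0.25 kb inside the shares were 66.4%, 66.1% and 67.3%, and at 1 kb inside 78.8%, 79.0% and 80.5%. The step of H3K27ac at the edge is set by the merging, but the libraries differed in how soon it filled. At 0.5 kb inside, 71.0% of edges were acetylated in EV number 1 and 85.8% in HEAA number 1, against 48.0% in EV number 2 and 22.9% in HEAA number 2.

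**Figure D3:**
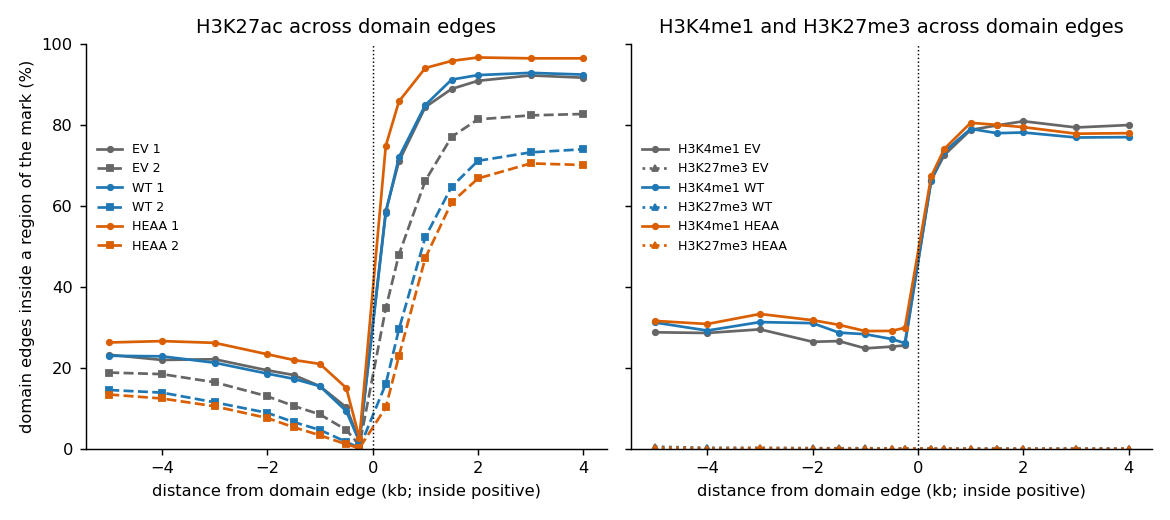
Share of the 2342 domain edges (vertical axis, percent) that lie inside a region of the mark at each distance from the edge (horizontal axis, kb, inside positive), for the 6 H3K27ac libraries (left) and the H3K4me1 and H3K27me3 lists (right). H3K4me1 goes from 25.5% at 0.25 kb outside to 66.4% at 0.25 kb inside in EV, with the other lines close by, and H3K27me3 lies along the bottom of the right panel.

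At the UTX summits themselves H3K4me1 covered less than over all domain bases. H3K27ac chose the domains, so its share at summits inside them is a description and is not a like comparison. Of the 540 summits of WT, 96.7% lay in H3K27ac of EV number 1, against 87.1% of all domain bases. The lowest share of these summits in any library was 86.3% in HEAA number 2, against 59.8% of all domain bases. H3K4me1 covered 48.5% of these summits in EV, 36.3% in WT and 38.9% in HEAA, below the 78.7%, 76.6% and 77.9% of all domain bases. At 0.5 kb to either side it covered 93.6%, 90% and 91.4%. The gap in H3K4me1 was therefore narrow, and it was also present in the EV line, whose own UTX list had 5 summits in the domains.

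The summits of the HEAA list gave the same picture, with H3K4me1 over 50.0% in EV, 42.2% in WT and 42.4% in HEAA. MLL4 summits of WT had 46.2%, 29.0% and 31.4%. In each of these sets EV had the highest share. Over all domain bases the lines lay closer together, WT differing from EV by -2.07 points and HEAA by -0.737 points. That closeness depends on the threshold: with H3K4me1 regions of −log10 q at least 5 the shares in EV, WT and HEAA were 64.9%, 52.7% and 58.0%. The H3K4me1 list of EV was the shortest, covering 157 Mb against 179 Mb in WT and 186 Mb in HEAA. With 1 list per line these differences have no replicate error.

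**Figure D4:**
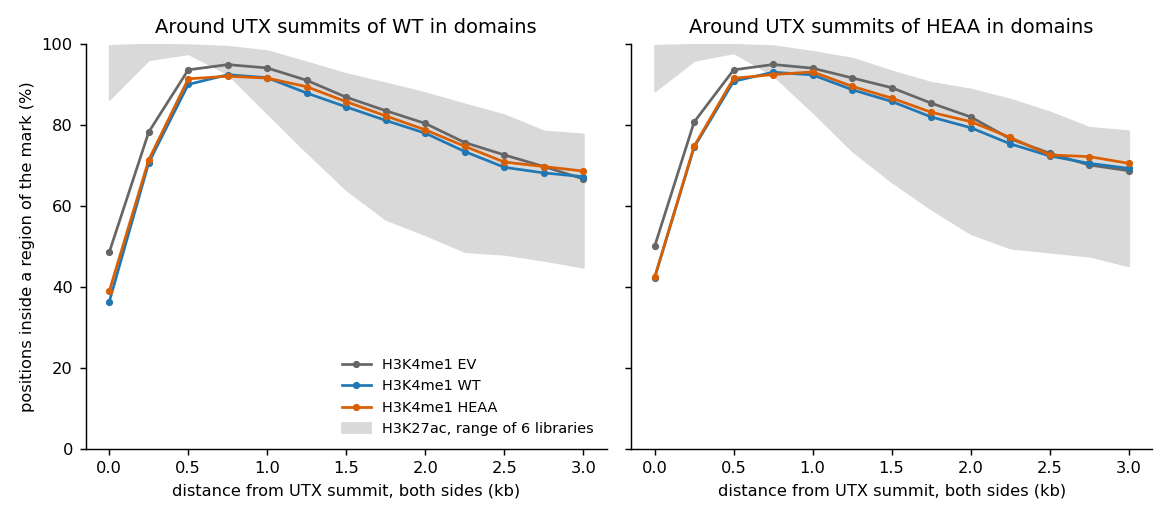
Share of positions inside H3K4me1 (lines, percent) or H3K27ac (grey band, lowest to highest of the 6 libraries) at 0 to 3 kb from the UTX summits in domains, both sides averaged, for the 540 summits of WT (left) and the 602 of HEAA (right). H3K4me1 starts at 36.3% to 48.5% at the WT summits and is at 90% or above from 0.5 kb to 1 kb. The H3K27ac band starts there between 86.3% and 99.6%, but H3K27ac chose the domains.

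Domains with UTX in both WT and HEAA had somewhat more H3K4me1, in each line, than domains with UTX in neither. H3K4me1 in EV covered 81.6% of bases in the 352 with UTX in both and 75.7% in the 601 with UTX in neither. In WT the shares were 79.3% and 73.8%, and in HEAA 80.4% and 75.4%. The median widths were 10.6 and 9.73 kb. For acetylation, the WT and HEAA mean differed from EV with number 1 by 2.09 points in domains with UTX in both lines and by 5.19 points in those without, and with number 2 by -13.1 and -13.4 points. The direction turned with the library number in both sets.

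A minority of domains had little H3K4me1. It covered under 50% of bases in all 3 lines in 65 domains, and at least 90% in all 3 in 172. Of the 65, 9 held UTX in WT (13.8%) and 7 in HEAA (10.8%). The 172 had UTX in 30.2% and 40.1%, and the 934 domains between them in 40.5% and 43.6%, so the share did not follow H3K4me1 in order. Acetylated bases in EV, WT and HEAA were 87.9%, 90.8% and 93.8% of the 65 with number 1 and 80.2%, 72.1% and 66.3% with number 2. In the 172 they were 87.2%, 88.5% and 95.1%, and 76.5%, 64.1% and 60.0%. A domain on chromosome 7 from 5457762 to 5470936 was of this kind but held both factors. It was 13.2 kb wide with a core of 90.3%, had 2.99 kb of H3K4me1 in EV, 2.92 kb in WT and 3.05 kb in HEAA, and held 3 UTX summits in WT and 2 in HEAA and 2 MLL4 summits in each.

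H3K4me1 was set beside acetylation in the same domains. Where all 4 WT and HEAA libraries had fewer acetylated bases than EV (274 domains), H3K4me1 covered 80.2% in EV, 73.5% in WT and 75.6% in HEAA. Where all 4 had more (79 domains), it covered 72.2%, 75.3% and 75.5%. Fewer H3K4me1 bases in both WT and HEAA than in EV were counted in 527 of all domains (45.0%, against 36.2% of all regions called in 6 libraries), in 181 of the 274 (66.1%) and in 25 of the 79 (31.6%). More in both was counted in 357 (30.5%, against 26.3%), in 28 of the 274 (10.2%) and in 35 of the 79 (44.3%). In regions of 4 to 8 kb, nearer to domains in width, 40.0% had fewer in both and 29.0% had more in both. Where all 4 libraries had fewer acetylated bases in such regions, 54.9% had fewer H3K4me1 bases in both and 15.5% had more. Where all 4 had more, 20.5% had fewer H3K4me1 bases in both and 52.2% had more. Both patterns were thus also found in narrower regions. In WT by itself, 39 of the 79 domains had more H3K4me1 bases than EV and 40 had fewer, so the higher share in WT was not carried by most of these domains. In HEAA 50 of the 79 had more and 29 had fewer. In regions of 4 to 8 kb H3K4me1 went from 77.1% in EV to 70.5% in WT in those with fewer acetylated bases and from 72.4% to 77.7% in those with more. A UTX summit of WT lay in 105 of the 274 (38.3%) and 20 of the 79 (25.3%), against 37.5% of all domains. That difference was not tested.

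H3K27me3, the substrate of UTX, was nearly absent. It touched 2 domains in EV and 1 each in WT and HEAA, over 0.476, 0.313 and 0.981 kb. By count, 0.171%, 0.0854% and 0.0854% of domains were touched, against 0.187%, 0.187% and 0.208% of regions of 4 to 8 kb. In EV the 2 shares were thus close. The lengths are 0.00353%, 0.00232% and 0.00727% of domain bases, against 0.0293%, 0.0184% and 0.0207% in regions of 4 to 8 kb. The lists covered 169 to 251 Mb, so the mark was called widely elsewhere. With regions of −log10 q at least 5 alone, none lay in a domain in any line. The nearest H3K27me3 region lay a median of 80.3 kb from a domain in EV, 112 kb in WT and 99.7 kb in HEAA, against 68.6, 97.3 and 85.4 kb for regions of 4 to 8 kb. It lay within 10 kb of 4.53%, 2.22% and 2.39% of domains, against 8.87%, 4.04% and 5.45% of those regions.

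The touched domains were 3. The one on chromosome 7 from 25881527 to 25892766 had 0.326 kb of H3K27me3 in EV and 0.981 kb in HEAA, and its acetylated bases were 11.2 kb in EV, 9.18 kb in WT and 9.46 kb in HEAA with number 1 and 9.26, 4.33 and 2.71 kb with number 2. Chromosome 9 from 140203324 to 140211799 had 0.313 kb in WT, where 0.251 kb was acetylated with number 1 and 5.38 kb with number 2. Chromosome 1 from 169074587 to 169086609 had 0.150 kb in EV.

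The widest domain lay on chromosome 12 from 52599364 to 52644078 and was 44.7 kb wide. Its acetylated bases were 42.0 kb in EV, 42.0 kb in WT and 42.5 kb in HEAA with number 1, and 38.0, 27.8 and 27.3 kb with number 2. All libraries with number 1 thus agreed to within 1 kb, and with number 2 EV stood above the others. It held 2 UTX summits in WT and 2 in HEAA, 1 MLL4 summit in HEAA, and H3K4me1 over 40.6, 41.0 and 39.4 kb in EV, WT and HEAA. Of the 12 widest domains, 29.6 to 44.7 kb, 9 held UTX in WT, 10 in HEAA and 1 in EV, MLL4 was in 3 and 4, and none held H3K27me3 in any line. Of the 135 domains from 16 kb, 57.0% held UTX in WT and 54.8% in HEAA, against 37.5% and 41.2% of all domains. These shares contain the greater width. Per kb, the 135 had 0.0400 UTX summits in WT and 0.0386 in HEAA, against 0.0400 and 0.0446 in all domains.

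Next in width was chromosome 1 from 209527331 to 209566916 (39.6 kb), with 1 summit of each factor in WT and in HEAA. Its acetylated bases were 39.3, 38.1 and 38.7 kb in EV, WT and HEAA with number 1 and 22.3, 22.6 and 20.7 kb with number 2, so the values followed the library number more than the line. By contrast, chromosome 21 from 45004085 to 45035729 (31.6 kb) held no factor in any list. It was acetylated over 31.3, 29.5 and 30.1 kb with number 1 and 25.9, 20.8 and 20.9 kb with number 2.

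The third widest domain, on chromosome 12 from 12939296 to 12978720 (39.4 kb), had the largest deficit of acetylated bases in the WT and HEAA lines when the differences of both numbers, in kb, were averaged (-10.9 kb). With number 1 alone, domains on chromosomes 8 and 11 had larger ones (-9.41 and -9.31 kb, against -8.47 kb here). EV had 38.4 and 38.5 kb in its 2 libraries, WT 27.5 and 26.2 kb, and HEAA 32.3 and 24.2 kb, so no WT or HEAA library reached EV. It was in 3 and 2 pieces in EV and in 8 to 11 in the other libraries. It held 3 UTX summits in WT and 4 in HEAA and no MLL4. H3K4me1 covered 34.7 kb in EV, 29.2 kb in WT and 31.2 kb in HEAA.

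The second by that average was on chromosome 11 from 86165957 to 86185502 (19.5 kb), with 19.5 and 12.7 kb in EV, 7.49 and 2.37 kb in WT and 13.0 and 1.93 kb in HEAA. The remaining members of the 5 largest deficits were on chromosome 8, on chromosome 7 from 46224351 to 46251790 and on chromosome 5 from 148335924 to 148351121. UTX lay in 4 of these 5 domains in WT and in 3 in HEAA, against 37.5% and 41.2% of all domains, but the 5 are 15.2 to 39.4 kb wide and wide domains held UTX more often. These domains were picked for their difference, so its size is a description.

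The largest excess was in the domain on chromosome 19 from 52286627 to 52298536, 11.9 kb wide. EV had 0.382 kb with number 1 and 1.25 kb with number 2, WT 11.9 and 9.14 kb, and HEAA 11.4 and 6.45 kb. Both EV libraries lay far below all 4 others. H3K4me1, which was not used to choose it, had no region in the domain in EV and covered 9.05 kb in WT and 7.48 kb in HEAA. No UTX or MLL4 summit lay in it in any line. Its core was 0.278 kb, so it met the rule for all 6 libraries through small EV peaks.

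**Figure D5:**
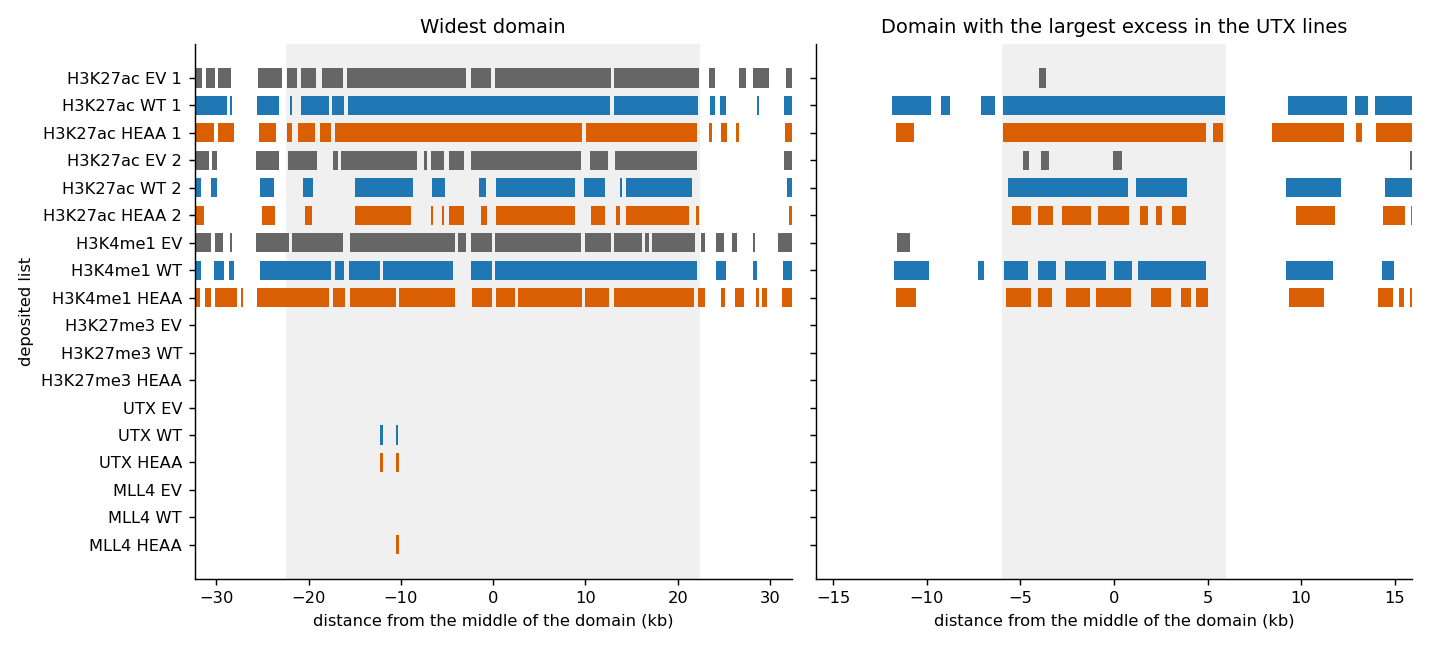
Peaks of all 18 lists (rows) in the widest domain (left) and in the domain with the largest excess of acetylated bases in WT and HEAA (right), by distance from the middle of the domain (horizontal axis, kb); grey shading marks the domain. The left domain is acetylated over 27.3 to 42.5 kb in every library, whereas in the right one the EV libraries have 0.382 and 1.25 kb and H3K4me1 is present in WT and HEAA alone.

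The other excesses were smaller. On chromosome 20 from 61853376 to 61867765 (14.4 kb), EV had 4.36 and 5.09 kb, WT 14.4 and 8.99 kb and HEAA 11.7 and 8.71 kb, with H3K4me1 over 12.04 kb in EV, 14.4 kb in WT and 13.8 kb in HEAA. On chromosome 14 from 100936692 to 100945632 (8.94 kb), EV had 1.69 and 0.246 kb, WT 7.97 and 3.29 kb and HEAA 8.69 and 1.98 kb. Neither held a factor. Chromosome 1 from 159876264 to 159897334 held 1 MLL4 summit in each of WT and HEAA, and a domain on chromosome 8 held 1 UTX summit in each.

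The most UTX summits were in a 27.6 kb domain on chromosome 19 from 13946400 to 13974022, with 6 in WT and 2 in HEAA, and 2 MLL4 summits in each of WT and HEAA. It was acetylated over 23.4, 23.9 and 25.4 kb in EV, WT and HEAA with number 1 and 27.3, 25.2 and 24.5 kb with number 2. It was one of the domains in which EV number 2 had more bases than EV number 1. The domain on chromosome 20 from 30189498 to 30201133 packed 3 UTX summits in WT and 4 in HEAA into 11.6 kb. It was 1 piece in every library, with 10.9 to 11.6 kb acetylated and a core of 93.5%, and held no MLL4.

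On chromosome 3 from 193849794 to 193861483 a domain of 11.7 kb held 3 UTX summits in WT and in HEAA and 2 in EV. It was the only domain with more than 1 UTX summit in EV. On chromosome 15 from 70778040 to 70794791, 1 UTX summit was present in EV beside 3 in WT and 3 in HEAA, and MLL4 had 1 in each of the 3 lines. The domain with the most MLL4 was on chromosome 7 from 1593154 to 1605761 (12.6 kb), with 3 summits in WT and 2 in HEAA next to 2 UTX summits in each. On chromosome 19 from 39896099 to 39904770 (8.67 kb), MLL4 had 2 summits in HEAA and 1 in each of the other lines, and UTX had none. This domain was the only one of the 10 with the most MLL4 that held no UTX.

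The authors' fold enrichment, a ratio over local background that describes peaks within one list, was higher for the longest H3K27ac peak of a domain than for the list as a whole. Its median in EV, WT and HEAA was 8.23, 9.58 and 8.84 with number 1, against 3.94, 4.04 and 3.51 for all peaks of those lists. With number 2 it was 9.90, 8.16 and 7.90, against 4.93, 4.57 and 4.81. The domains were chosen for width in these same lists and the longest peak was then taken, so this difference is a description and was not tested. UTX peaks, which had no part in the choice, are not a like comparison. Their median was 5.01 in domains in WT and 5.29 in HEAA, against 5.24 and 5.27 for those outside.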

How the data were processed

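ChIP-seq was done on 24 samples, of which 18 peak lists were used. The 6 inputs were not used here. Cells were fixed with paraformaldehyde, and chromatin was treated with micrococcal nuclease and then sonicated for UTX and MLL4 and sonicated alone for histone marks, per the labels' protocols. The authors deposited narrow peaks for UTX and MLL4 and broad regions for the marks. MACS2 and the builds hg19 and GRCh37 are named per the submitters' processing notes. Not given in the sources used here: its version, the aligner and the filters on reads. The deposited fold enrichment is a linear ratio. Each peak also carries −log10 values of its p-value and q-value, deposited by the authors, with q up to 0.0495 in the narrow lists and 0.0999 in the broad ones. The deposited score was not used. The UTX peak names mention a merge without saying of what. A base without a peak lies under the caller's threshold and is not shown to lack signal.

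Positions are those of the lists on hg19, counted from 1. H3K27ac peaks of the 6 libraries were merged where they touched or overlapped. A factor peak belonged to a domain when its summit lay inside, and an overlap of 2 peaks needed at least 1 bp. Densities have exact Poisson and shares Wilson 95% intervals. Ratios of densities have approximate 95% intervals, computed on the log scale from the summit counts of both sets. All of these intervals cover counting error only. Values of a mark are shares of bases, printed with no interval. An interval over domains as counted units served only to sort the alternatives for the marks, and domains are not replicates. No test was made, because H3K27ac chose the domains and the other antibodies have 1 list per line. Python 3.11.15 with NumPy 2.4.6, pandas 2.3.3, SciPy 1.17.1 and matplotlib 3.10.9 was used. The merging was tested on simulated data, where 200 of 200 planted wide domains were recovered.

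The domains and the comparisons were chosen with earlier results of these data known. Regions are named by a rule: the 12 widest, the 10 with the most UTX and the 10 with the most MLL4 summits, the 3 just inside and the 3 just outside the width limit, all with H3K27me3 up to 5, and the 5 largest excesses and deficits of acetylation with one sign under both library numbers. The region called in 3 libraries and the longest chains were chosen after their values were seen. Not every domain the rule allows is described. An annotation or sequence of hg19 was not used here, so no gene is named, gene lists were not counted, and the labelled cell type was not checked against marker genes. Alternatives covered the width limit, gaps, q thresholds, list lengths, the overlap rule, the chromosome with the most domains and each library.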

Additional observations from a re-analysis of the deposited data

How the results depend on the processing

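Of 220 alternatives to the values the comparisons rest on, 187 moved by less than the interval or spread and 33 by more. For the number of domains a fixed factor took the place of the interval, and for the marks an interval over domains as units. The 187 include settings that cannot move a value and 2 that turned the sign of the acetylation difference, whose spread is wide. A minimum width of 5000 bp gave 3719 domains and 75.3% of UTX summits in the middle 50% in WT and 75.3% in HEAA. A minimum of 12000 bp gave 339 domains, 61.0% and 60.2%, an MLL4 density of 0.000712 per kb in EV, and 0% H3K27me3 in WT and HEAA. Joining H3K27ac gaps of up to 1000 bp gave 2168 domains, UTX densities of 0.0313 in WT and 0.0353 in HEAA, MLL4 densities of 0.00997 and 0.0131, and H3K4me1 over 72.9%, 71.6% and 73.4% in EV, WT and HEAA. With factor peaks of −log10 q at least 5, the UTX densities of EV, WT and HEAA were 7.41e-05, 0.0330 and 0.0353, and those of MLL4 were 0.00941 in WT and 0.0123 in HEAA. With WT and HEAA lists of equal length, HEAA had 0.0401 for UTX and 0.0125 for MLL4. With mark regions of −log10 q at least 5, H3K4me1 in EV, WT and HEAA covered 64.9%, 52.7% and 58.0%, and H3K27me3 0% in all 3. H3K27me3 in WT was 0% with H3K27ac peaks of −log10 q at least 5 and with H3K27ac lists of equal length. The cause of these moves was not tested, beyond the fewer peaks and domains that such settings keep.

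Leaving out each H3K27ac library in turn gave 976 to 1169 domains, UTX densities of 0.0400 to 0.0421 in WT and 0.0446 to 0.0474 in HEAA, and H3K27me3 in WT from 0 (without EV number 2) to 0.00282%. The difference in acetylated share of WT and HEAA from EV was -4.79 points over all libraries and ran from -11.3 to 1.43 points. Its sign turned without EV number 1 (1.43) and without HEAA number 2 (0.706). With the library number as a replicate block it was -4.79 points, the same by construction because each number holds every line. With H3K27ac lists of equal length, the ratio of UTX density in domains to regions of 4 to 8 kb was 1.10 in WT (0.989 to 1.23) and 1.11 in HEAA (0.998 to 1.22), and without HEAA number 1 it was 1.10 in WT (0.984 to 1.23). The unknown depth limits every list, since a longer list calls more bases.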
